A study of Mus musculus with 12 samples.

Results

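DNA replication genes were followed in LSD1-knockout and wild-type mouse B cells; LSD1 is a histone demethylase, encoded by Kdm1a. The 43 genes were chosen by name, for their roles in origin licensing, origin firing, DNA synthesis, clamp loading and nucleotide supply, and all 43 were listed in the deposited table of 9842 genes. RNA sequencing covered 12 libraries of 2000 sorted cells each, in 4 groups of 3, from female C57BL/6J mice. The group eMZB_KO held LSD1-knockout marginal zone B cells made ex vivo, by culturing transitional B cells for 3 days with the Notch ligand DL1 and the survival factor BAFF, and eMZB_WT held the wild-type cells of the same culture. The group TrB_KO held LSD1-knockout transitional B cells taken from the spleen without stimulation, and TrB_WT held their wild-type counterparts. All cells were sorted as B220+ and free of Thy1.1, F4/80 and CD11b. CD93 marked the TrB cells, and CD21 with CD1d marked the eMZB cells. The labels name neither the allele of the knockout nor the cells in which it acts, and do not say whether the replicates came from separate animals, so p-values reflect only library-to-library spread, possibly of technical origin. The cell types also differ in culture and stimulation, which cannot be told apart from cell identity here.

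Replication starts where the origin recognition complex (Orc1, Orc2, Orc6), Cdc6 and Cdt1 load the Mcm2 to Mcm7 helicase onto DNA in G1 phase. At the start of S phase the kinase Cdc7, with Mcm10, Cdc45 and the GINS complex, turns the helicase on, primase and the polymerases copy the strands, and the replication factor C (RFC) complex loads the sliding clamp PCNA. Many of these genes are transcribed as cells pass from G1 into S phase, under factors of the E2F family, so their messenger RNAs are commonly read as a sign of dividing cells. In bulk samples a larger share of dividing cells and more of the RNA per cell cannot be told apart.

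Promoter sequence was read for 36 of the 43 genes from RefSeq windows (GRCm38.p6) of 250 bases before to 50 bases after the start. Gins1, Gins2, Gins4, Mcm4, Pole, Prim2 and Rfc2 had no entry. The letters searched as an E2F motif were TTTCCCGC, TTTGGCGC, TTTCGCGC and TTTGCCGC on both strands. They stood in the windows of 14 of the 36 genes (38.9%), against 390 of 7831 genes of the deposited table with a window (4.98%) and 704 of 27025 genes in all (2.60%). The CCAAT box, searched as CCAAT on both strands, was in 63.9% of the 36 genes and in 43.9% of the table's genes. The CHR element of late cell cycle genes, searched as TTTGAA on both strands, was in 16.7% and 15.1%. The stretches below show, for each of the 14 genes, the E2F match nearest to the start with up to 10 bases on each side, read 5′ to 3′ on the gene's strand, with every match in capitals. They are shown because the genes whose levels are described below differ in whether they carry these letters.
Mcm3, chr1:20820276-20820303, minus strand: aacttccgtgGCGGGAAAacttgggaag
Mcm5, chr8:75109350-75109377, plus strand: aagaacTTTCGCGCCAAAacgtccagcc
Mcm6, chr1:128359735-128359762, minus strand: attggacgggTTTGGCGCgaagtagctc
Mcm7, chr5:138171850-138171877, minus strand: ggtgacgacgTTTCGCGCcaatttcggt
Cdc6, chr11:98908003-98908030, plus strand: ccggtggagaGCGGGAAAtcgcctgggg
Cdt1, chr8:122568037-122568064, plus strand: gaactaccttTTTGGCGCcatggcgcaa
Orc1, chr4:108579417-108579444, plus strand: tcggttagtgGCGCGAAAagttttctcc
Pola1, chrX:93632276-93632303, minus strand: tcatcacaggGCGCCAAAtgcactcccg
Pold1, chr7:44548766-44548786, minus strand: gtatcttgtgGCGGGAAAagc
Pole2, chr12:69228163-69228190, minus strand: gtcggcggtgGCGCCAAAtcgcgaacat
Rfc3, chr5:151651191-151651218, minus strand: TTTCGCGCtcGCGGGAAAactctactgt
Lig1, chr7:13278842-13278869, plus strand: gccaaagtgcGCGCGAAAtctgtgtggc
Dnmt1, chr9:20952574-20952600, minus strand: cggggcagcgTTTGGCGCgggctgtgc
Uhrf1, chr17:56304118-56304145, plus strand: ccgagtcgggTTTCGCGCgcccaggcgt

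The letters stood in genes called higher, called lower and not called in the comparisons below. Of the 18 genes with a window that were higher in eMZB than in TrB in both genotypes, 8 held a match, as did 2 of the 3 that were lower in eMZB (Pold1 and Rfc3) and 4 of the 9 called in neither. None of the 6 genes called higher in 1 genotype alone held one. The windows of Mcm6 and Pold1 are given whole, since these genes passed the test in opposite directions. The Mcm6 window, chr1:128359656-128359955 on the minus strand, held 3 matches, of which 2 overlap.
Mcm6: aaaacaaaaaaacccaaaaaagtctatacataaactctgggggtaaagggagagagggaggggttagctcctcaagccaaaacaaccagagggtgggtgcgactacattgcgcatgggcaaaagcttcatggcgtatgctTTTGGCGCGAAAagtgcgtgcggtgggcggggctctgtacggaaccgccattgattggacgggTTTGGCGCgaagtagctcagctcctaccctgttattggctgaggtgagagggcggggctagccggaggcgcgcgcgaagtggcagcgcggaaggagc
The Pold1 window, chr7:44548766-44549065 on the minus strand, held 1 match, which begins 40 bases into the gene.
Pold1: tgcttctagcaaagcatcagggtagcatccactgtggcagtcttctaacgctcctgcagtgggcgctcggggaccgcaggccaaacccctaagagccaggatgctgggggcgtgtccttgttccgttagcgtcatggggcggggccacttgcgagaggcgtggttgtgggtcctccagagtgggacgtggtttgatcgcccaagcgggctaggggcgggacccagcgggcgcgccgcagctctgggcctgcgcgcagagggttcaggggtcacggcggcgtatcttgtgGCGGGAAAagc
The windows of Rrm2 and Dut, which were also called in both cell type comparisons, held no match. The Dut window, chr2:125247265-125247564 on the plus strand, lay inside the gene, whose listed start is 125247248. Bases before that start were thus not searched for Dut. A match is a string of letters and not a shown binding site, and the absence of one says nothing of the factor.

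Levels are FPKM, which are reads corrected for gene length and for the read total of the library, divided by 1 median-of-ratios factor per library, called scaled FPKM, and are given in the order of replicates 1, 2 and 3. Changes are differences of log2(scaled FPKM + 1), which understate the change of low genes, with the standard error (SE) of a limma fit across all 9842 genes. A gene is called higher or lower at an adjusted p under 0.05 over all genes. Read totals recovered from the values ran from 7.24 to 19.3 M (mega) per library, with 1.96 to 8.78 M in the listed genes. The 43 genes held 5696 to 26857 reads per library. A single gene had between 6 reads (Gins1 and Gins2, each in its lowest library) and 3035 reads (Pold1 in its highest). Read numbers bound counting error only, since the reads carry no molecular identifiers. TrB_KO replicate 3 stood apart, with 61.6% of its reads in listed genes and 285 of them at 0, against 16.7% to 41.7% and 19 to 65 in the other libraries. Kdm1a had 2.65, 2.53 and 2.66 in eMZB_KO, against 7.53, 8.63 and 4.68 in eMZB_WT. In TrB_KO it had 3.35, 2.56 and 2.99, against 8.54, 7.93 and 3.47 in TrB_WT, so that replicate 3 of each wild-type group is the library labelled wild type with Kdm1a nearest to the knockouts. The sorting marker Cr2 (CD21) was at 60.9 to 70.7 in eMZB and 7.79 to 15.3 in TrB, and Cd93 at 0.698 to 1.10 in eMZB and 4.18 to 6.05 in TrB. Cd1d1, the other marker of the eMZB sort, was at 25.4 to 31.0 in eMZB_KO, against 22.4 to 22.9 in TrB_KO, and at 22.6 to 23.0 in eMZB_WT, against 19.8 to 24.8 in TrB_WT, so its messenger RNA overlapped between the wild-type cell types. All 6 B cell markers were listed, and their sum was 1074 to 1117 in eMZB_KO, against 1783 to 2075 in TrB_KO, and 1160 to 1289 in eMZB_WT, against 2025 to 2350 in TrB_WT. It was thus lower in eMZB, and its part in the cell type changes below was not tested.

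The genes spanned more than an order of magnitude within a library, and the group means of the summed level were ordered by cell type and then genotype. The 43 genes summed to 375.9 ± 14.8 scaled FPKM in eMZB_KO and 335.8 ± 7.80 in eMZB_WT, and to 291.0 ± 9.94 in TrB_KO and 254.5 ± 27.4 in TrB_WT (SD, n = 3 each). The TrB genotypes overlapped, at 280.4 in TrB_KO replicate 2 and 286.2 in TrB_WT replicate 3, the library with low Kdm1a. The sums were not tested. Averaged over the 12 libraries, the most abundant per length were the clamp loader subunit Rfc2 (30.6), the clamp Pcna (21.5) and the catalytic subunit of polymerase delta, Pold1 (19.8). The lowest were Cdc6 (0.780) and Mcm10 (0.935). The 6 helicase genes Mcm2 to Mcm7, whose products form a ring with 1 copy of each, summed to 91.9 ± 4.62 in eMZB_KO and 77.7 ± 3.72 in eMZB_WT, and to 59.0 ± 5.96 in TrB_KO and 44.4 ± 6.44 in TrB_WT. They lay closer together in eMZB than in TrB. The highest of the 6 over the lowest was 1.39 ± 0.116 in eMZB_KO, 1.44 ± 0.215 in eMZB_WT, 1.81 ± 0.200 in TrB_KO and 2.17 ± 0.219 in TrB_WT, and Mcm7 was the highest in all 12 libraries.

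**Figure D1:**
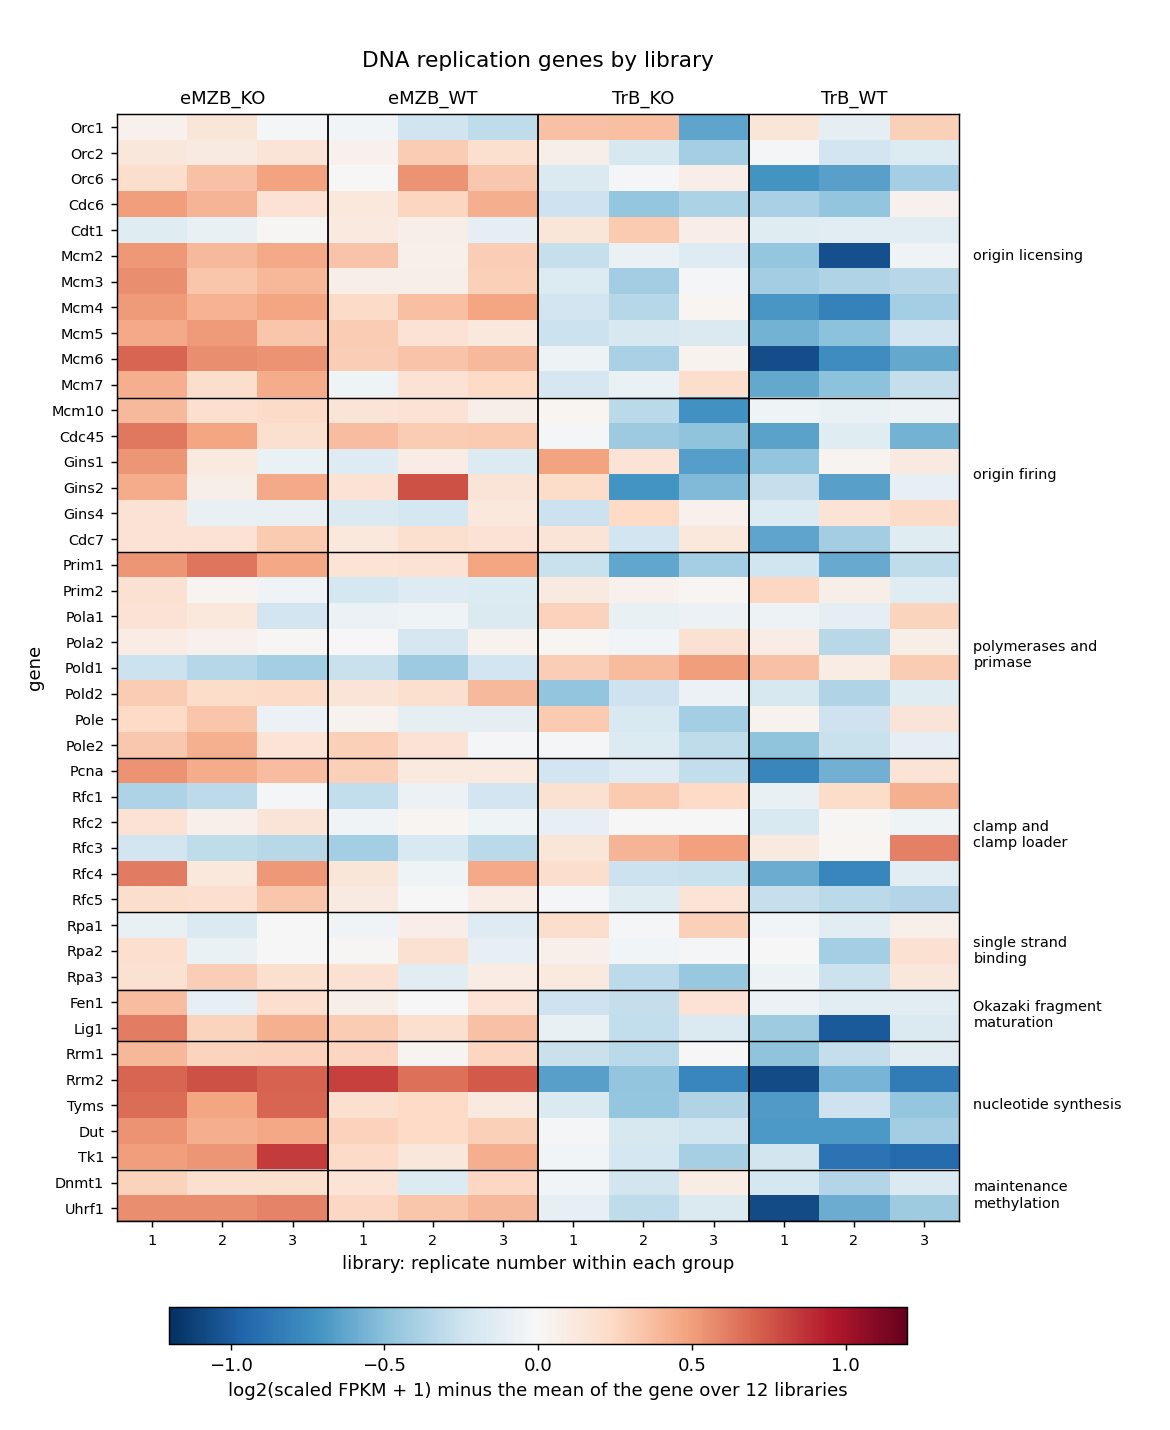
Heat map of the 43 DNA replication genes (rows, grouped by role) in the 12 libraries (columns, 3 replicates in each of eMZB_KO, eMZB_WT, TrB_KO and TrB_WT); colour is log2(scaled FPKM + 1) minus the gene's mean over the 12 libraries. Most rows are red in eMZB and blue in TrB, while Pold1, Rfc1 and Rfc3 run the other way.

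**Figure D2:**
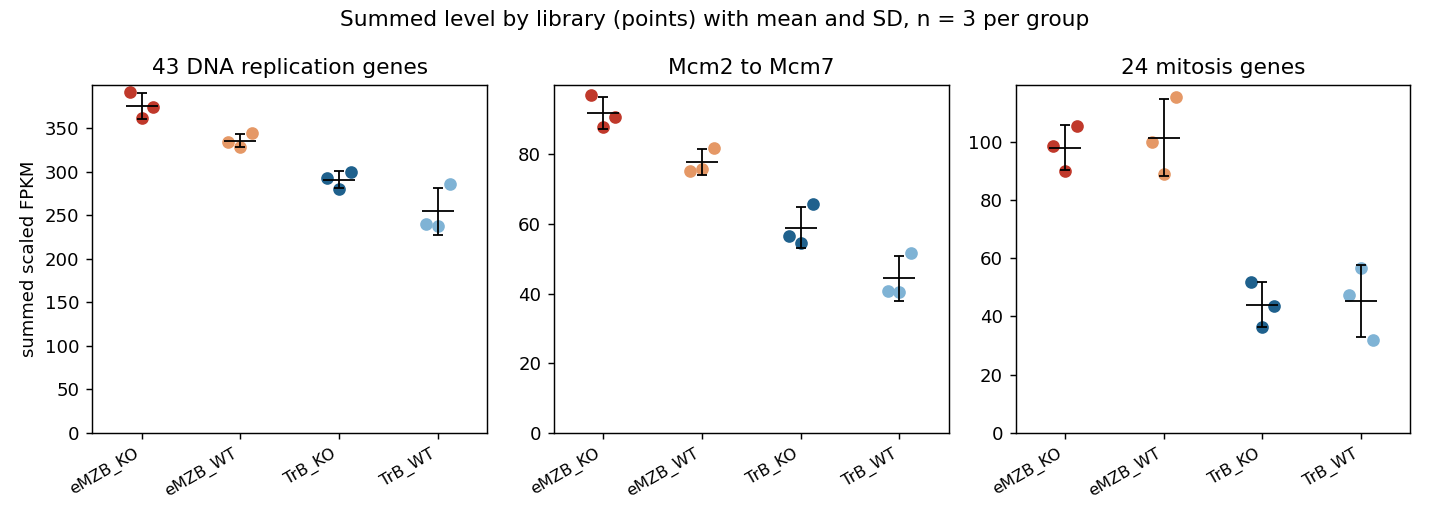
Summed scaled FPKM per library (points) with mean and SD (n = 3 per group) for the 43 DNA replication genes, for Mcm2 to Mcm7 and for 24 mitosis genes. The helicase genes step down over the 4 groups, at 91.9, 77.7, 59.0 and 44.4 on average, while the mitosis genes separate by cell type, at 97.9 and 101.4 in eMZB and 43.9 and 45.2 in TrB.

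The comparison of eMZB with TrB asks which of these genes differ between cultured marginal zone B cells and the transitional cells they derive from. In each genotype most of the 43 genes were called, nearly all of them higher in eMZB. Between eMZB_WT and TrB_WT, 23 of 43 were called higher, where 14.6% of all genes were, and 2 were called lower, where 12.7% were. Between eMZB_KO and TrB_KO, 21 were called higher (14.2% of all genes) and 3 lower (13.2%). The median log2 change of the 43 was 0.48 in wild type and 0.44 in knockout, against 0.00 and -0.01 for all genes. The libraries did not overlap for 28 genes in wild type (21.8% of all genes were higher without overlap) and for 27 in knockout (22.7%), with 3 (23.3%) and 4 (21.2%) in the downward direction. On the deposited scale, without library factors, 23 genes were called higher and 0 lower in wild type, and 4 higher and 0 lower in knockout, namely Rrm2, Tyms, Mcm10 and Cdc6. The median of all genes then lay at 0.67 and 0.23. Over all genes that scale called 1779 higher and 117 lower in wild type, and 387 higher and 73 lower in knockout. Lower calls were thus few over all genes, and 0 among the 43 says little about these genes. The deposited table lists genes with 1 FPKM or more in at least 3 libraries. Of the TrB libraries, Cdc6 and Mcm10 reached that level in none, and Tyms and Pole2 in TrB_KO replicate 3 alone. These genes were thus listed through eMZB, where they are called higher, so the listing favoured such calls. The comparisons share no library but use the same estimate of spread per gene, from all 12 libraries, so their calls are not independent. Called higher in both were 19 genes, which is 82.6% of the genes called higher in wild type and 90.5% of those called higher in knockout. Over all genes 995 were called higher in both, which is 69.1% of the calls in wild type and 71.2% of those in knockout.

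**Figure D3:**
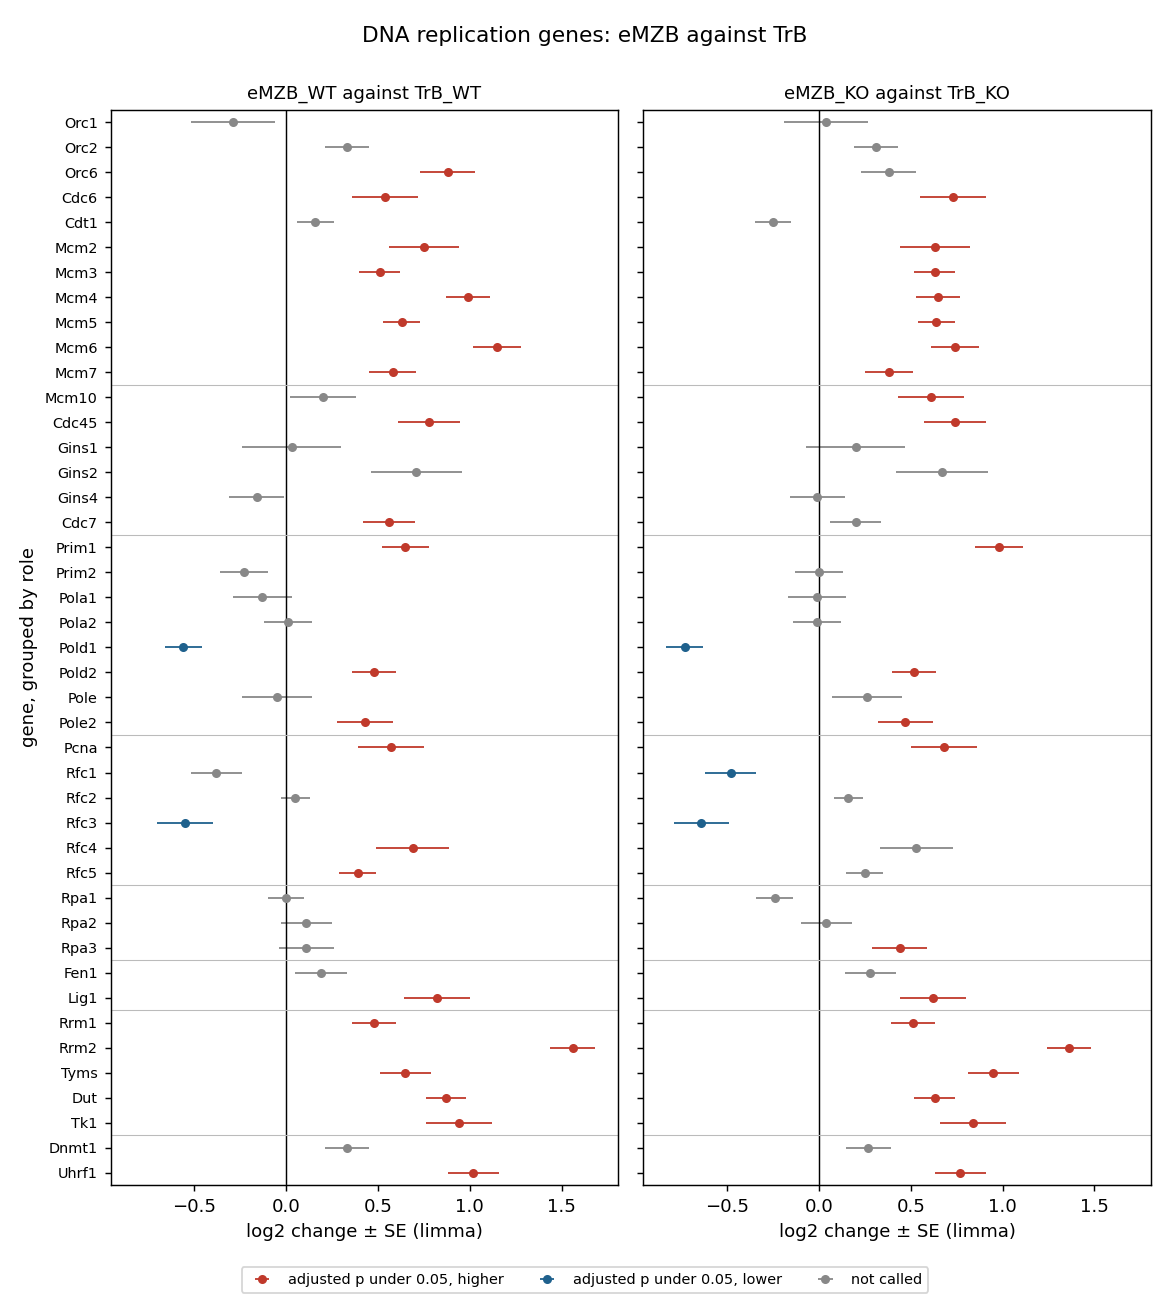
Log2 change with SE (limma) of each DNA replication gene, grouped by role, for eMZB_WT against TrB_WT (left) and eMZB_KO against TrB_KO (right); red marks genes called higher and blue genes called lower at an adjusted p under 0.05. Rrm2 has the largest change on this log2(scaled FPKM + 1) scale in both panels, at 1.56 and 1.36, and Pold1 the lowest, at -0.56 and -0.73.

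All 5 nucleotide synthesis genes rose in eMZB in both genotypes. Rrm2, the small subunit of ribonucleotide reductase that is made in S phase (Entrez 20135, chr12:24708254-24714146, mm10), had 15.1, 15.9 and 15.3 scaled FPKM in eMZB_KO, against 5.33, 6.17 and 4.77 in TrB_KO. In wild type it had 16.6, 14.7 and 15.6 in eMZB_WT, against 3.74, 5.76 and 4.58 in TrB_WT. Every eMZB library thus lay above every TrB library by a wide margin. Rrm2 changed by 1.36 on the log2 scale (SE 0.12, adjusted p = 7.44e-06) in knockout and by 1.56 (SE 0.12, adjusted p = 2.38e-06) in wild type.

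Dut, the dUTPase that keeps uracil out of DNA (Entrez 110074, chr2:125247248-125259049), had 5.76, 5.30 and 5.43 in eMZB_KO, against 3.57, 3.08 and 2.94 in TrB_KO. It had 4.63, 4.50 and 4.68 in eMZB_WT, against 1.89, 1.89 and 2.48 in TrB_WT. The 4 groups did not overlap at all for this gene. The log2 change between cell types was 0.63 (SE 0.11, adjusted p = 0.000831) in knockout and 0.87 (SE 0.11, adjusted p = 7.22e-05) in wild type. Tyms, thymidylate synthase (Entrez 22171, chr5:30038546-30073645), had 3.13, 2.60 and 3.23 in eMZB_KO, against 1.31, 0.885 and 1.02 in TrB_KO, a log2 change of 0.95 (SE 0.14, adjusted p = 0.000387). It had 1.97, 2.06 and 1.83 in eMZB_WT, against 0.619, 1.18 and 0.882 in TrB_WT, a change of 0.65 (SE 0.14, adjusted p = 0.00488). A named pseudogene, Tyms-ps, may take or give reads of this gene. The salvage kinase Tk1 changed by 0.84 in knockout and 0.94 in wild type (SE 0.18 each), and Rrm1, the large subunit of ribonucleotide reductase, by 0.51 and 0.48 (SE 0.12 each). Exons of Tk1 overlap Afmid on the other strand. Rrm1 had 12.2 to 13.5 in eMZB_KO, against 7.81 to 10.1 in TrB_KO, and 10.3 to 12.2 in eMZB_WT, against 6.87 to 9.06 in TrB_WT, a smaller step than that of its partner Rrm2.

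Among the 11 origin licensing genes, all 6 helicase genes rose in eMZB in both genotypes, and the loaders were mixed. Mcm6 (Entrez 17219, chr1:128331575-128359705) had 16.3, 14.7 and 14.5 in eMZB_KO, against 9.19, 7.13 and 9.92 in TrB_KO, a log2 change of 0.74 (SE 0.13, adjusted p = 0.00128). It had 12.1, 12.4 and 13.0 in eMZB_WT, against 4.09, 5.35 and 5.94 in TrB_WT, a change of 1.15 (SE 0.13, adjusted p = 4.14e-05). The order eMZB_KO, eMZB_WT, TrB_KO, TrB_WT held for it with no overlap between neighbouring groups. Mcm4 (Entrez 17217) had 14.2, 13.3 and 13.8 in eMZB_KO, 11.5, 12.7 and 13.9 in eMZB_WT, 8.12, 7.41 and 9.83 in TrB_KO and 5.59, 5.08 and 7.07 in TrB_WT. The eMZB groups overlapped each other for Mcm4 and lay above both TrB groups, with changes of 0.65 (SE 0.12, adjusted p = 0.00204) in knockout and 0.99 (SE 0.12, adjusted p = 9.15e-05) in wild type.

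Mcm5 (Entrez 17218) had 14.3, 14.9 and 13.0 in eMZB_KO, against 8.33, 8.77 and 8.89 in TrB_KO, a log2 change of 0.64 (SE 0.10, adjusted p = 0.000592). It had 12.7, 11.6 and 11.2 in eMZB_WT, against 6.53, 6.91 and 8.52 in TrB_WT, a change of 0.63 (SE 0.10, adjusted p = 0.000632), so its step was of like size in both genotypes. Mcm3 (Entrez 17215) had 18.3, 15.5 and 16.3 in eMZB_KO, against 10.7, 8.84 and 11.9 in TrB_KO, a change of 0.63 (SE 0.11, adjusted p = 0.00120). In wild type it had 12.8, 12.7 and 15.0 in eMZB_WT, against 8.84, 9.22 and 9.42 in TrB_WT, a change of 0.51 (SE 0.11, adjusted p = 0.00469). Mcm7 (Entrez 17220) was the most abundant of the 6, with 19.6, 16.7 and 19.7 in eMZB_KO, 13.7, 16.3 and 17.0 in eMZB_WT, 12.3, 13.5 and 16.7 in TrB_KO and 8.98, 9.84 and 11.5 in TrB_WT. Its changes were 0.38 (SE 0.13, adjusted p = 0.0422) in knockout and 0.58 (SE 0.13, adjusted p = 0.00506) in wild type. In knockout the groups nearly met, at 16.67 in TrB_KO replicate 3 and 16.70 in eMZB_KO replicate 2, and the call held in 5 of 12 fits that left out 1 library. It was lost without eMZB_KO replicate 1 or 3, eMZB_WT replicate 2 or 3, TrB_KO replicate 1 or 2, or TrB_WT replicate 2, with adjusted p up to 0.142. Exons of Mcm7 overlap Ap4m1 and Cops6 on the other strand, and the libraries do not mark strand. Mcm2 changed by 0.63 in knockout and 0.75 in wild type (SE 0.19 each). The knockout call of Mcm2 (adjusted p = 0.0278) was lost without any 1 of the eMZB_KO libraries or without TrB_KO replicate 1, with adjusted p up to 0.0864.

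**Figure D4:**
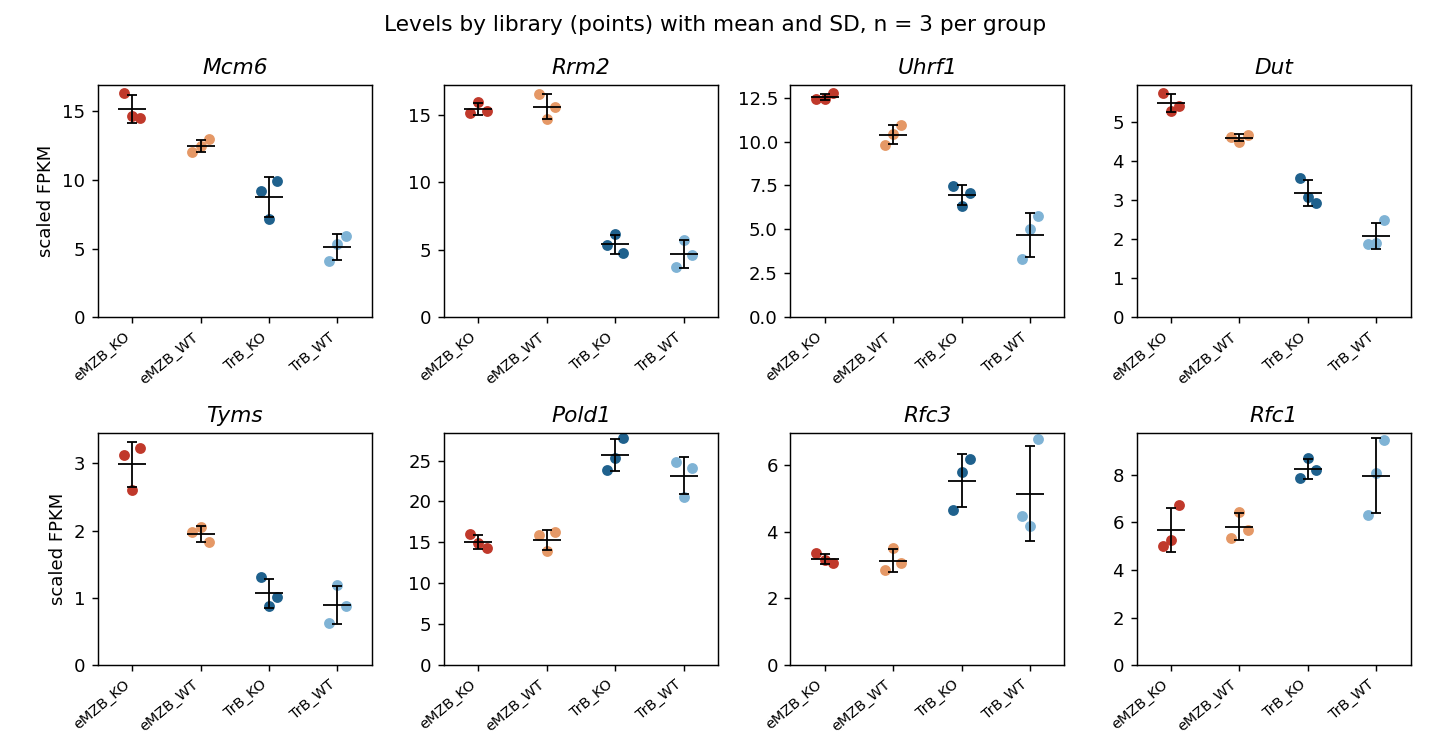
Scaled FPKM of 8 DNA replication genes in each library (points) with mean and SD (black, n = 3), for eMZB_KO, eMZB_WT, TrB_KO and TrB_WT from left to right; each axis starts at 0. Mcm6, Uhrf1 and Dut step down over the 4 groups, Rrm2 separates by cell type with its genotypes overlapping, and Pold1 and Rfc3 are lower in eMZB, as is Rfc1 in knockout, with overlap in wild type.

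Of the helicase loaders, Cdc6 rose in eMZB, with 0.949 to 1.45 in eMZB_KO, against 0.251 to 0.454 in TrB_KO, and 0.887 to 1.33 in eMZB_WT, against 0.246 to 0.787 in TrB_WT. Its changes were 0.73 in knockout and 0.54 in wild type (SE 0.18 each). The wild-type call of Cdc6 (adjusted p = 0.0393) held in 5 of 12 fits that left out 1 library. It was lost without eMZB_KO replicate 1 or 2, any eMZB_WT library, or TrB_WT replicate 1 or 2, with adjusted p up to 0.136. As deposited, Cdc6 was under 1 FPKM in every TrB library, so it was listed through eMZB. Orc6, a subunit of the origin recognition complex, was called in wild type, at 3.56 to 5.62 in eMZB_WT and 1.76 to 2.43 in TrB_WT (log2 change 0.88, SE 0.15, adjusted p = 0.000824). In knockout it had 4.26 to 5.35 in eMZB_KO and 3.03 to 3.82 in TrB_KO (0.38, SE 0.15, adjusted p = 0.0716), and was called with the replicate block (adjusted p = 0.0316). Orc1, Orc2 and Cdt1 were called in neither genotype. For Cdt1 the knockout groups did not overlap in the downward direction, at 4.61 to 5.27 in eMZB_KO and 5.55 to 6.72 in TrB_KO (-0.25, SE 0.10, adjusted p = 0.0783), while in wild type it had 4.71 to 5.71 in eMZB_WT and 4.59 to 4.68 in TrB_WT.

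Of 6 origin firing genes, Cdc45, the helicase cofactor, rose in both genotypes, by 0.74 in knockout and 0.78 in wild type (SE 0.17 each). It had 3.00 to 4.43 in eMZB_KO, against 1.51 to 2.46 in TrB_KO, and 3.33 to 3.53 in eMZB_WT, against 1.25 to 2.17 in TrB_WT. Exons of Cdc45 overlap Ufd1 on the other strand. The kinase gene Cdc7 was called in wild type, at 4.88 to 5.15 in eMZB_WT and 2.47 to 3.88 in TrB_WT (0.56, SE 0.14). Mcm10, which helps start the helicase, was called in knockout (0.61, SE 0.18, adjusted p = 0.0213), with 1.19 to 1.48 in eMZB_KO and 0.932, 0.521 and 0.151 in TrB_KO. The lowest value was that of TrB_KO replicate 3, and without replicate 3 of TrB_KO, TrB_WT and eMZB_WT together the adjusted p was 0.0539. The Mcm10 call was also lost without eMZB_KO replicate 1 or 3, with adjusted p up to 0.0834. Mcm10, too, was under 1 FPKM in every TrB library as deposited, and was listed through eMZB. Gins4 had the highest level of the 6 genes, with 7.38 to 9.09 in eMZB_KO, against 6.48 to 9.52 in TrB_KO, and 6.72 to 8.74 in eMZB_WT, against 6.95 to 9.46 in TrB_WT. It overlapped between all groups and was not called, and neither were Gins1 and Gins2.

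The 8 polymerase and primase genes went both ways. Prim1, the catalytic primase subunit (Entrez 19075, chr10:128015215-128030030), had 6.25, 6.87 and 5.96 in eMZB_KO, against 3.18, 2.27 and 2.80 in TrB_KO, a log2 change of 0.98 (SE 0.13, adjusted p = 0.000200). It had 4.65, 4.66 and 5.98 in eMZB_WT, against 3.25, 2.31 and 3.08 in TrB_WT, a change of 0.65 (SE 0.13, adjusted p = 0.00348). The accessory subunit Pold2 rose by 0.52 in knockout and 0.48 in wild type (SE 0.12 each). Pole2, the accessory subunit of polymerase epsilon, rose by 0.47 and 0.43 (SE 0.15 each), and its exons overlap the protein-coding Gm49384 on the same strand. The wild-type call of Pole2 (adjusted p = 0.0447) held in 4 of 12 fits that left out 1 library, with adjusted p up to 0.162. It was lost without any eMZB_KO library, eMZB_WT replicate 1 or 2, TrB_KO replicate 2, or TrB_WT replicate 1 or 2. Its knockout call was lost without eMZB_KO replicate 1 or 2 or TrB_KO replicate 2 or 3, with adjusted p up to 0.120.

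Pold1, the catalytic subunit that Pold2 supports, fell in eMZB in both genotypes. Pold1 (Entrez 18971, chr7:44532744-44548815) had 15.97, 14.95 and 14.3 in eMZB_KO, against 23.9, 25.3 and 27.7 in TrB_KO. It had 15.8, 14.0 and 16.2 in eMZB_WT, against 24.8, 20.6 and 24.1 in TrB_WT. Every eMZB library lay below every TrB library, with a log2 change of -0.73 (SE 0.10, adjusted p = 0.000148) in knockout and -0.56 (SE 0.10, adjusted p = 0.00101) in wild type. As deposited, Pold1 had a log2 change of 0.26 in wild type, below the median shift of 0.67 but of the opposite sign. The other 4 genes, Pola1, Pola2, Prim2 and the catalytic subunit Pole, were not called in either genotype. Their changes ran from -0.23 to 0.01 in wild type and from -0.01 to 0.26 in knockout.

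The clamp rose in both genotypes, and the subunits of its loader went both ways. Rfc3 was called lower in both genotypes and Rfc1 in knockout, while Rfc4 and Rfc5 were called higher in wild type. Pcna (Entrez 18538) had 27.2 to 30.6 in eMZB_KO and 16.7 to 18.5 in TrB_KO (log2 change 0.68, SE 0.18, adjusted p = 0.0141), and 22.5 to 25.5 in eMZB_WT. In TrB_WT it had 11.7, 13.6 and 23.3, and the last of these, from the library with low Kdm1a, lay within the eMZB_WT range. The wild-type change was 0.57 (SE 0.18, adjusted p = 0.0349), and the call was lost without any 1 of the eMZB_WT libraries or TrB_WT replicate 1 or 2, with adjusted p up to 0.134. When TrB_WT replicate 3 was left out the adjusted p was 6.36e-05, the lowest of the left-out fits. The knockout call was lost without eMZB_KO replicate 1 (adjusted p = 0.0539). Pcna has named pseudogenes, Pcna-ps1 and Pcna-ps2, that may share its reads.

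Rfc3 (Entrez 69263, chr5:151642817-151651208), a small loader subunit, had 3.35, 3.13 and 3.05 in eMZB_KO, against 4.63, 5.77 and 6.18 in TrB_KO, a log2 change of -0.64 (SE 0.15, adjusted p = 0.00743). It had 2.84, 3.49 and 3.06 in eMZB_WT, against 4.48, 4.18 and 6.76 in TrB_WT, a change of -0.55 (SE 0.15, adjusted p = 0.0166). The wild-type call was lost without eMZB_WT replicate 1 (adjusted p = 0.0658) or 3, and without replicate 3 of both wild-type groups it was -0.36 with adjusted p = 0.101. The wild-type change of Rfc3 was 0.14 on the deposited scale, again below the median shift of 0.67. Rfc1, the large subunit, had 5.02, 5.26 and 6.73 in eMZB_KO, against 7.87, 8.70 and 8.21 in TrB_KO, a change of -0.48 (SE 0.14, adjusted p = 0.01998). That call was lost without eMZB_KO replicate 1 or 2 or TrB_KO replicate 2, with adjusted p up to 0.0870. In wild type Rfc1 had 5.34, 6.44 and 5.66 in eMZB_WT, against 6.33, 8.08 and 9.47 in TrB_WT (-0.38, SE 0.14, adjusted p = 0.0554). In wild type Rfc4 changed by 0.69 (SE 0.20) and Rfc5 by 0.39 (SE 0.10). In knockout Rfc4 had an adjusted p of 0.0720. It was called higher (0.53, adjusted p = 0.0325) with the replicate block, which fits a term per replicate number over all 12 libraries. The Rfc4 call was lost without eMZB_WT replicate 1 or 3 or TrB_WT replicate 1 or 2, with adjusted p up to 0.1001, and Rfc4 and Rfc5 have exons that overlap Eif4a2 and Wsb2 on the other strand. Rfc2, the most abundant of the 43 genes, was nearly level, with 31.9 to 34.5 in eMZB_KO, against 28.5 to 30.7 in TrB_KO, and 29.4 to 31.1 in eMZB_WT, against 26.7 to 30.9 in TrB_WT. Its exons overlap Lat2 on the other strand.

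The remaining roles held few calls. Of the replication protein A genes, which coat single-stranded DNA, Rpa1 was the most abundant, with 13.8 to 15.7 in eMZB_KO, against 15.5 to 19.3 in TrB_KO, and 14.0 to 16.6 in eMZB_WT, against 14.1 to 16.4 in TrB_WT, and was not called. Rpa3 was called in knockout alone (0.44, SE 0.15, adjusted p = 0.0417), and that call held in 4 of 12 left-out fits. It was lost without any eMZB_KO library, eMZB_WT replicate 1 or 3, TrB_KO replicate 2 or 3, or TrB_WT replicate 1, with adjusted p up to 0.126. Rpa2 was not called. Of the genes that join Okazaki fragments, the ligase Lig1 rose by 0.62 in knockout and 0.82 in wild type (SE 0.18 each), and its exons overlap Zswim9 on the other strand. The knockout call of Lig1 was lost without eMZB_KO replicate 1 or 3 or TrB_KO replicate 2, with adjusted p up to 0.0928. The flap nuclease Fen1, more abundant than Lig1, had 9.21 to 13.1 in eMZB_KO, against 7.96 to 11.3 in TrB_KO, and 9.88 to 11.3 in eMZB_WT, against 8.93 to 9.41 in TrB_WT, and was not called. Uhrf1, which brings the maintenance methylase to newly copied DNA (Entrez 18140, chr17:56303337-56323486), had 12.4, 12.4 and 12.8 in eMZB_KO, against 7.48, 6.35 and 7.05 in TrB_KO, a change of 0.77 (SE 0.14, adjusted p = 0.00141). It had 9.82, 10.4 and 10.9 in eMZB_WT, against 3.33, 5.02 and 5.77 in TrB_WT, a change of 1.02 (SE 0.14, adjusted p = 0.000168), so that no neighbouring groups overlapped. Dnmt1, the methylase itself, changed by 0.27 and 0.33 (SE 0.12 each) and was not called. Across the roles, 20 of the 25 wild-type calls and 16 of the 24 knockout calls held in all 12 fits that left out 1 library.

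The LSD1 comparison asks whether these genes differ between knockout and wild-type cells of 1 cell type. In TrB, Mcm6 alone passed the test, and in eMZB no gene did, while most of the 43 genes stood somewhat higher in the knockouts of both cell types. In TrB_KO against TrB_WT, 1 of 43 genes was called higher, where 0.386% of all genes were, and 0 were called lower, where 0.112% were. By limma without adjustment 11 genes had p under 0.05 upward (5.91% of all genes) and 0 downward (3.99%). The libraries did not overlap for 8 genes upward (6.14% of all genes) and for 0 downward (4.37%). The log2 change was above 0 for 32 of 43 genes, against 51.5% of all genes, with a median of 0.13 against 0.01 and a range of -0.28 to 0.67.

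**Figure D5:**
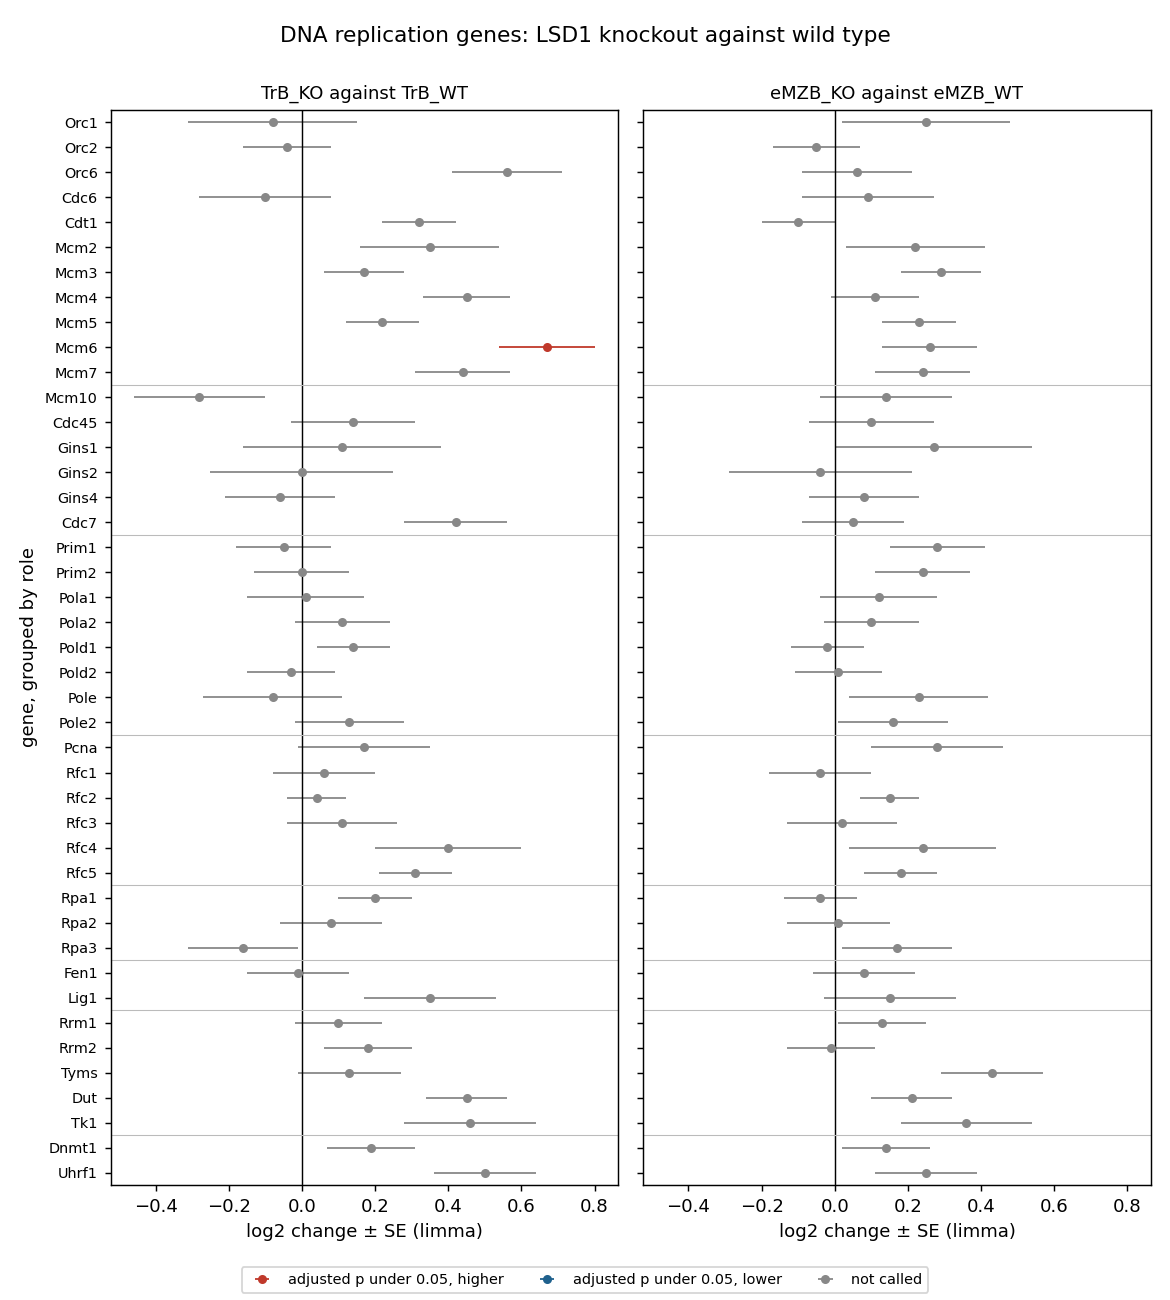
Log2 change with SE (limma) of each DNA replication gene, grouped by role, for TrB_KO against TrB_WT (left) and eMZB_KO against eMZB_WT (right); red marks the gene called higher at an adjusted p under 0.05. Mcm6 in TrB, at 0.67, is the called gene, and most other points lie to the right of 0 in both panels with bars that often reach it.

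Mcm6 had 9.19, 7.13 and 9.92 in TrB_KO, against 4.09, 5.35 and 5.94 in TrB_WT, a log2 change of 0.67 (SE 0.13, adjusted p = 0.0469). This comparison and that of the wild-type cell types use the same TrB_WT libraries. The call held in 2 of 12 fits that left out 1 library, those without TrB_KO replicate 2 or TrB_WT replicate 3, and the adjusted p of the others reached 0.164. The other genes without overlap in TrB were Mcm4, Mcm7, Dut, Rfc5, Cdt1, Orc6 and Uhrf1. Orc6 had 3.03, 3.50 and 3.82 in TrB_KO, against 1.76, 1.90 and 2.43 in TrB_WT (0.56, SE 0.15, adjusted p = 0.191), and its exons overlap Vps35 on the other strand. Uhrf1 had 7.48, 6.35 and 7.05 in TrB_KO, against 3.33, 5.02 and 5.77 in TrB_WT (0.50, SE 0.14, adjusted p = 0.204). Dut had 3.57, 3.08 and 2.94 in TrB_KO, against 1.89, 1.89 and 2.48 in TrB_WT (0.45, SE 0.11, adjusted p = 0.134). Without replicate 3 of TrB_KO, TrB_WT and eMZB_WT together, a setting added once the values were known, 4 genes were called higher in TrB_KO, namely Mcm6, Mcm4, Pcna and Dut. The share of all genes called in that setting is not given here, so the count is not read as particular to these genes. On the deposited scale 0 of the 43 genes were called in TrB, with a median change of 0.65 for the 43 and 0.52 for all genes, and voom on recovered reads called 0.

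In eMZB_KO against eMZB_WT, limma called 0 of 43 genes, where 0.335% of all genes were higher and 0.0711% lower, and voom also called 0. The smallest adjusted p was 0.549, that of Tyms, which had 3.13, 2.60 and 3.23 in eMZB_KO, against 1.97, 2.06 and 1.83 in eMZB_WT (log2 change 0.43, SE 0.14). Without adjustment 3 genes had p under 0.05 upward (Tyms, Mcm3 and Mcm5; 3.16% of all genes) and 0 downward (2.23%). The libraries did not overlap for 16 genes upward, where 9.13% of all genes did so, and for 0 downward, where 9.29% did. These were Mcm2, Mcm3, Mcm5, Mcm6, Mcm10, Pcna, Rrm1, Tyms, Dut, Rfc2, Rfc5, Prim2, Rpa3, Orc1, Uhrf1 and Tk1. The change was above 0 for 36 of 43 genes, against 48.8% of all genes, and ran from -0.10 to 0.43 with a median of 0.14. Pcna had 30.6, 28.7 and 27.2 in eMZB_KO, against 25.5, 22.6 and 22.5 in eMZB_WT (0.28, SE 0.18). Mcm3 had 18.3, 15.5 and 16.3 in eMZB_KO, against 12.8, 12.7 and 15.0 in eMZB_WT (0.29, SE 0.11, adjusted p = 0.739). Rrm2, which had the largest log2(scaled FPKM + 1) change between the cell types, had overlapping libraries in eMZB_KO and eMZB_WT (-0.01, SE 0.12).

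Other measures moved with genotype or within the wild-type groups. The summed level of Mcm2 to Mcm7 was 56.4, 54.7 and 65.8 in TrB_KO, against 40.8, 40.5 and 51.8 in TrB_WT. The highest library of each group was replicate 3, which is the one that stands apart in TrB_KO and the one with low Kdm1a in TrB_WT. Of 7 macrophage and monocyte markers 4 were listed, and their sum was 50.6 to 58.4 in eMZB_KO, against 13.0 to 23.0 in eMZB_WT, and 51.1 to 64.6 in TrB_KO, against 12.4 to 14.2 in TrB_WT. Most of this sum was Ly6c2, and the defining markers Csf1r, Lyz2 and Cd14 were not among the listed genes. The other listed markers were mixed. Itgam was higher in the knockouts of both cell types without overlap, and Cd68 overlapped in both. Adgre1 overlapped in eMZB and was lower in TrB_KO, at 0.976 to 1.61, against 2.05 to 2.43 in TrB_WT. Of the T cell markers Lck alone was listed, and none of 5 neutrophil and 5 stromal markers was. Of 5 dendritic cell markers Flt3 alone was listed, with 4.52 to 5.67 in eMZB_KO, 0.676 to 1.06 in eMZB_WT, 0.402 to 0.469 in TrB_KO and 0.721 to 0.864 in TrB_WT. Of 6 plasmablast and plasma cell markers 5 were listed, and their sum was 34.5 to 41.8 in eMZB_KO, 49.1 to 58.3 in eMZB_WT, 47.7 to 97.6 in TrB_KO and 31.8 to 53.6 in TrB_WT. Jchain, a large and variable part of it, had 0.658 to 5.27 in eMZB_KO, 9.11 to 14.5 in eMZB_WT, 17.9 to 59.2 in TrB_KO and 0.405 to 24.2 in TrB_WT. The part of these in the replication genes was not tested.

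The difference between the LSD1 responses of the cell types, eMZB minus TrB, was called for 0 of 43 genes by limma and 0 by voom, where 1 of 9842 genes was called higher (0.0102%). Its median was -0.04 over the 43 genes. Without adjustment 3 genes had p under 0.05, all with the lower response in eMZB (3.98% of all genes), and 0 had it upward (2.87%). These were Orc6 (-0.50, SE 0.21), Cdt1 (-0.41, SE 0.14) and Mcm6 (-0.41, SE 0.18), with adjusted p of 0.686, 0.686 and 0.713. The same term compares the cell type step between genotypes, so a gene called in 1 genotype alone, such as Cdc7 or Mcm10, is not shown to differ between them.

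Genes around this set differed in how many were called by cell type, from a minority of other replication genes to most mitosis genes. Of 42 other replication genes 40 were listed, of which 9 were called higher and 1 lower between eMZB_KO and TrB_KO, and 10 higher and 1 lower between eMZB_WT and TrB_WT. The calls upward are 22.5% and 25.0% of the list, where 14.2% and 14.6% of all genes were called higher, and its median changes were 0.23 and 0.21. The histone chaperone gene Asf1b had 7.42 to 9.41 in eMZB_KO, against 5.03 to 5.50 in TrB_KO, and 5.81 to 7.75 in eMZB_WT, against 2.96 to 4.34 in TrB_WT, with changes of 0.63 and 0.81 (SE 0.14 each) in knockout and wild type. Dbf4, the activator of Cdc7, rose in knockout (0.83, SE 0.18). Pold4, a small subunit of polymerase delta, fell as Pold1 did, with 32.6 to 35.9 in eMZB_KO, against 38.5 to 44.7 in TrB_KO, and 33.3 to 36.2 in eMZB_WT, against 42.1 to 49.8 in TrB_WT. Its changes were -0.30 and -0.38 (SE 0.09 each). As deposited they were 0.00 and 0.47, both below the median shift, and the knockout call was lost without eMZB_KO replicate 2 or 3 or TrB_KO replicate 2 or 3, with adjusted p up to 0.0933. In both LSD1 comparisons limma called 0 of these 40 genes, as did the fit on the deposited scale. That fit called 1 higher between eMZB_KO and TrB_KO and 14 higher between eMZB_WT and TrB_WT, with 0 lower. Over all genes it called 387 higher and 73 lower in knockout, and 1779 higher and 117 lower in wild type.

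All 25 other nucleotide synthesis genes were listed. Between eMZB_KO and TrB_KO 14 were called higher and 4 lower, and between eMZB_WT and TrB_WT 12 were called higher and 3 lower, with medians of 0.42 and 0.38. The calls upward are 56.0% and 48.0% of the list, against 14.2% and 14.6% of all genes. Downward, 13.2% and 12.7% of all genes were called. Mthfd2, a mitochondrial enzyme of one-carbon metabolism, had 17.3, 17.2 and 19.0 in eMZB_KO, against 1.98, 3.51 and 1.64 in TrB_KO, a log2 change of 2.52 (SE 0.17, adjusted p = 1.05e-06). It had 13.6, 16.8 and 19.7 in eMZB_WT, against 2.11, 2.10 and 2.08 in TrB_WT, a change of 2.50 (SE 0.17, adjusted p = 9.23e-07), larger than that of any of the 43 genes. Shmt2, which feeds the same pathway, rose by 1.70 and 1.80 (SE 0.08 each). Rrm2b, the reductase subunit used outside S phase, fell where Rrm2 rose, with 3.52, 3.06 and 3.61 in eMZB_KO, against 11.6, 9.42 and 12.6 in TrB_KO (-1.47, SE 0.11, adjusted p = 2.09e-06). It had 3.49, 3.37 and 3.38 in eMZB_WT, against 10.3, 8.72 and 10.5 in TrB_WT (-1.29, SE 0.11, adjusted p = 4.97e-06). Samhd1, which breaks down deoxynucleotides, fell too, with 9.85 to 11.3 in eMZB_KO, against 19.3 to 25.5 in TrB_KO (adjusted p = 3.67e-05), and 12.5 to 13.8 in eMZB_WT, against 21.5 to 26.3 in TrB_WT (log2 change -0.77, SE 0.11, adjusted p = 0.000292). Of these genes, Rrm2b stayed below 0 on the deposited scale, at -1.23 and -0.54, and Samhd1 was at -0.72 in knockout and 0.06 in wild type, below the median shift. The deposited scale called 2 of the 25 higher in knockout and 11 in wild type, with 0 lower. Over all genes it called 387 higher and 73 lower in knockout, and 1779 higher and 117 lower in wild type.

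The 24 mitosis genes, all listed, were called between the cell types and not between the genotypes. Between eMZB_KO and TrB_KO 18 were called higher, and between eMZB_WT and TrB_WT 19, with none lower and a median change of 0.75 in each. By the same fit 14.2% of all genes were called higher and 13.2% lower in knockout, and 14.6% and 12.7% in wild type. As deposited the counts of mitosis genes called higher were 7 and 21, where 387 and 1779 of all genes were called higher. Plk1, a mitotic kinase, had 4.28, 3.75 and 5.58 in eMZB_KO, against 0.727, 0.819 and 0.749 in TrB_KO (log2 change 1.64, SE 0.20, adjusted p = 7.84e-05). It had 4.16, 3.65 and 4.84 in eMZB_WT, against 0.979, 1.37 and 0.294 in TrB_WT (1.51, SE 0.20, adjusted p = 0.000152). Limma called 0 of the 24 in either LSD1 comparison, with medians of -0.01 in TrB and -0.04 in eMZB. All knockout libraries lay above all wild-type ones for 0 of the 24 genes in either cell type, and below them for 1 in TrB (Tpx2, a spindle factor, at -0.57) and 0 in eMZB. Over all genes those shares were 6.14% upward and 4.37% downward in TrB, and 9.13% and 9.29% in eMZB. The medians of the 43 replication genes were 0.13 and 0.14 there, and the difference between the lists was not tested.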

How the data were processed

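RNA of 2000 cells per library was amplified with SMART-Seq v4 and tagged with Nextera XT, per the labels' protocols, and such libraries carry no strand. STAR and mm10 are named in the submitters' processing notes; its version, the counter and the annotation were not stated in the sources used. Values in the table deposited by the authors are FPKM, with 1 FPKM or more in at least 3 libraries for each gene. Read numbers, used for depth and for voom, were recovered from the FPKM of 9842 genes as whole numbers within 0.02 reads. Of the IDs, 9833 matched a RefSeq symbol. FPKM were divided by median-of-ratios factors (0.613 to 2.14), and log2(value + 1) was fitted with limma 3.58.1 (R 4.3.3) on all 12 libraries with 4 group means and 8 residual degrees of freedom, a trended prior and Benjamini-Hochberg adjustment over all genes. The fit was tested on simulated data.

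Replicate numbers come from the labels, with no word on what they stand for. Same-numbered libraries deviated from their group means with correlations of 0.161, 0.106 and 0.292 between eMZB_KO and TrB_KO. Other pairs of groups had at least 1 such value under 0.1, so eMZB_KO and TrB_KO alone met the rule for pairing by number. No fit paired only these groups, and the main fit used no pairing. Yet eMZB_KO replicate 2 correlated more with TrB_KO replicate 1 (0.12) than with replicate 2, so the values do not single out this pairing. The replicate block fitted a term per replicate number over all 12 libraries, and so also tied groups that did not pair. Between eMZB_KO and TrB_KO it called Orc6 and Rfc4 in addition.

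The members and gene lists were chosen with earlier results of these data known. Genes given in full are those called, up to 6 per comparison and direction by adjusted p, and the most abundant of each role; of other lists up to 3 called genes per comparison and direction are eligible, and not all of these are named. Gene positions are those of GRCm38 (mm10), from 1. Promoter windows are RefSeq's; for 32 of 36 genes the last 40 bases of a window lay in a GENCODE transcript of the gene. Alternatives were the deposited scale, upper-quartile factors, a pseudocount of 0.1, a mean of at least 2 scaled FPKM, voom on the recovered reads, the libraries of a comparison alone, the replicate block and leaving out libraries.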

Additional observations from a re-analysis of the deposited data

How the results depend on the processing

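Of the settings tried, library scaling moved the results most. On the deposited scale the counts of called genes were 0 (TrB, LSD1), 0 (eMZB, LSD1), 23 (wild-type cell types, 22 of them among the 25 called after scaling) and 4 (knockout cell types: Rrm2, Tyms, Mcm10 and Cdc6). The medians were then 0.65, 0.20, 1.08 and 0.67, with -0.47 for the difference of responses, against shifts of all genes of 0.52, 0.06, 0.67, 0.23 and -0.46. Pold1 (0.26) and Rfc3 (0.14) changed sign there in wild type. The Mcm6 call in TrB was lost as deposited and with upper-quartile factors, a pseudocount of 0.1, voom, the TrB libraries alone and the replicate block (adjusted p = 0.0769), each leaving 0 called genes; the cause was not tested. Leaving out 1 library gave 0 to 2 called genes in TrB with medians of 0.06 (without TrB_WT replicate 1) to 0.19, and 0 in eMZB. It gave 20 (without eMZB_WT replicate 1) to 28 between the wild-type cell types. Between the knockout cell types it gave 16 (without eMZB_KO replicate 1) to 25. Calls over all genes fell in these lowest fits too. They were 1944 in wild type without eMZB_WT replicate 1, against 2693 in the main fit. In knockout they were 1978 without eMZB_KO replicate 1, against 2695. Without replicate 3 of TrB_KO, TrB_WT and eMZB_WT together, chosen after seeing the data, TrB had 4 called genes and a median of 0.21. The median of all genes was 0.01 there, and their share called is not given here. With voom the knockout cell type median was 0.59. The replicate block gave 26 calls between the knockout cell types against 24 (Orc6 and Rfc4 in addition). It kept 25 between the wild-type cell types, where Rfc1 and Dnmt1 took the place of Pole2 and Cdc6, and 0 in eMZB and for the difference of responses. Low counts limit Gins1, Gins2, Pole2 and Cdc6, at 6 to 12 reads in their lowest library. Cdc6 and Mcm10 were under 1 FPKM in every TrB library as deposited, and so were listed through eMZB.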

Other observations

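Regulators of the G1 to S transition, which act upstream of the replication genes, went both ways between the cell types. Of 29 listed by name 24 were in the table, and 9 were called higher and 4 lower between eMZB_KO and TrB_KO, and 9 higher and 5 lower between eMZB_WT and TrB_WT. The calls upward are 37.5% of the list in each, where 14.2% and 14.6% of all genes were called higher. Downward, 13.2% and 12.7% of all genes were called, and the list lay nearer that share. Myc, the growth regulator, had 23.3, 21.5 and 26.4 scaled FPKM in eMZB_KO, against 8.97, 8.09 and 9.09 in TrB_KO, and 15.7, 16.1 and 17.8 in eMZB_WT, against 5.38, 6.31 and 5.47 in TrB_WT. The 4 groups did not overlap for Myc. Its log2 change between cell types was 1.34 in knockout and 1.38 in wild type (SE 0.10 each). Between genotypes it was 0.53 in TrB (limma, adjusted p = 0.0390) and 0.49 in eMZB (adjusted p = 0.0617). The TrB call of Myc held in 2 of 12 fits that left out 1 library, those without eMZB_KO replicate 3 or TrB_WT replicate 2, and was lost in the others with adjusted p up to 0.142. Cdk4, the G1 kinase, rose by 0.79 in knockout and 0.72 in wild type (SE 0.08 each), and Ccna2, the S phase cyclin, by 1.45 and 1.69 (SE 0.19 each).

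E2f2, a transcription factor of the E2F family, fell in eMZB, with 3.74, 2.97 and 4.66 in eMZB_KO, against 11.4, 11.4 and 12.3 in TrB_KO (log2 change -1.42, SE 0.12, adjusted p = 3.68e-06). In wild type it had 4.14, 3.88 and 4.35 in eMZB_WT, against 13.1, 12.7 and 11.6 in TrB_WT (-1.40, SE 0.12, adjusted p = 3.93e-06). The cell cycle inhibitor Cdkn2d changed by -1.13 and -1.11 (SE 0.14 each), and the D-type cyclin Ccnd3 by -0.84 and -0.69 (SE 0.12 each). Without library factors E2f2 stayed below 0, at -1.18 and -0.62, as did Cdkn2d at -0.85 and -0.30, while Ccnd3 was at -0.58 in knockout and 0.08 in wild type, below the median shifts of 0.23 and 0.67. The deposited scale called 4 of the 24 regulators higher in knockout and 11 in wild type, with 0 lower. Over all genes it called 387 higher and 73 lower in knockout, and 1779 higher and 117 lower in wild type.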
